A study of Bos taurus with 6 samples.

Results

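Aminoacyl-tRNA synthetases are described here in cultured bovine granulosa cells (GC), the steroid-producing cells that line the ovarian follicle, with the cytosolic enzymes set against the mitochondrial ones. Members were the rows of the array table whose gene symbol equals 1 of 36 listed symbols, with a symbol that ends in 2 taken as mitochondrial. The table held 35 of these 36 genes, 20 cytosolic and 15 mitochondrial, in 36 of its 26773 transcript clusters, the probe groups by which the array summarizes a gene. FARSB had 2 transcript clusters and was read by the brighter one, and VARS2 was not analysed here. The cells came from small to medium follicles of abattoir ovaries, pooled over many cows of undefined cycle stage, and were frozen before use. They were plated at 100000 cells per well of a 24-well plate (normal density, 3 cultures) or at 1000000 cells per well (high density, 3 cultures). Cultures of both groups stood on collagen for 9 days in serum-free medium with insulin, transferrin, non-essential amino acids, FSH at 20 ng/ml, R3 IGF-1 at 50 ng/ml and also androstenedione at 2 micromolar. RNA was measured with the Bovine Gene 1.0 ST Array, and the comparison asks which transcripts change when GC are plated densely.

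Each synthetase joins 1 amino acid to its tRNAs, which then carry it to the ribosome. Cells translate in the cytosol and, separately, inside mitochondria, and most amino acids have a synthetase gene for each compartment. GARS and KARS are exceptions in which 1 gene gives both enzymes, and EPRS is a fusion that serves both glutamate and proline. For glutamine, mitochondria have no synthetase of their own and instead load glutamate with EARS2 and convert it on the tRNA. In many animal cells several cytosolic synthetases are held with the scaffold proteins AIMP1, AIMP2 and EEF1E1 in the multisynthetase complex. Cytosolic synthetase genes are also among the known targets of ATF4, a transcription factor made when amino acids are short.

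All values are log2 signals, and the background level of 4.62 is the 95th percentile of the 82 control rows. The array medians lay between 4.34 and 4.43, and 51.2% of the transcript clusters had signals at or below background. All 35 synthetase genes were above it in both groups. Of 10 GC markers, 10 were above background at normal and 9 at high density, CYP19A1 being the exception, and their summed linear signal was 7910 to 8410 at normal and 6210 to 6250 at high density. None of 6 leukocyte markers exceeded background, whereas 3 of 5 theca and 2 of 6 endothelial markers did so in both groups. Their summed signals were 399 to 444 at normal and 780 to 870 at high density for theca, where CYP17A1 was below background, and 91.0 to 96.8 and 248 to 285 for endothelium, where PECAM1 and CDH5 were. These sums went up with INSL3 (mean 7.20 at normal and 9.02 at high density) and CLDN5 (4.71 and 7.53). LHCGR, a theca marker below background, went from 4.04 to 2.84. At high density 2 theca markers were higher and 3 lower, and 4 endothelial markers were higher and 2 lower. The sum of 6 surface epithelium markers went from 115–145 to 951–1070 with KRT8 and KRT18, and that of 5 red cell markers from 68.1–84.0 to 634–949 with HBA, while HBB and EPCAM were below background. The part of these differences in the values below was not tested. In RNA of a whole culture, fewer cells with a transcript and less of it per cell cannot be told apart.

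The cytosolic and mitochondrial genes had opposite medians at high density. Among the 20 cytosolic genes, 6 rose (GARS, SARS, CARS, YARS, DARS and TARS), 0 fell and 14 did not pass the test. Among the 15 mitochondrial genes, 3 fell (RARS2, LARS2 and FARS2), 1 rose (SARS2) and 11 did not pass. Passing means an adjusted p below 0.05 in limma, with the Benjamini-Hochberg method applied to all transcript clusters, at any fold change. Of all transcript clusters, 8.64% passed as higher and 10.4% as lower, 19.1% in all. Among the 13077 clusters above background, 13.4% passed as higher and 18.5% as lower. The share of cytosolic genes that passed as higher, 30.0%, stood above both backgrounds in the fit of all 6 cultures without covariates. With the replicate number added to that fit the share was 10%, against 7.04% of all clusters and 11% of those above background. Without any 1 of the normal replicates or without high replicate 3 the cytosolic share was 2 of 20 (10%). This compares with 5.61 to 6.26% of all clusters and 9.26 to 10.2% of those above background, and so was near the latter. The share of mitochondrial genes that passed as lower, 20%, was near that of clusters above background.

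The median log2 fold change (high minus normal) was 0.13 for the cytosolic genes, with a range of −0.32 to 0.55, and −0.14 for the mitochondrial genes, with a range of −0.67 to 0.52. The median was 0.02 over all transcript clusters and −0.05 over the 13077 above background, of which 7513 lay below 0. The changes were small. With the FC threshold of 1.5 added, only RARS2 was called among the listed genes. The calls over the whole table were 3.97% higher and 3.51% lower, 7.49% in all. Between groups, 9 cytosolic genes were without overlap and higher at high density and 3 without overlap and lower, against 17.8% and 19.5% of all transcript clusters. For the mitochondrial genes these counts were 1 and 5. Of the 13077 clusters above background, where all the synthetase genes lie, 2885 were without overlap and higher and 4283 without overlap and lower. The mitochondrial count of lower genes was near that last share.

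**Figure D1:**
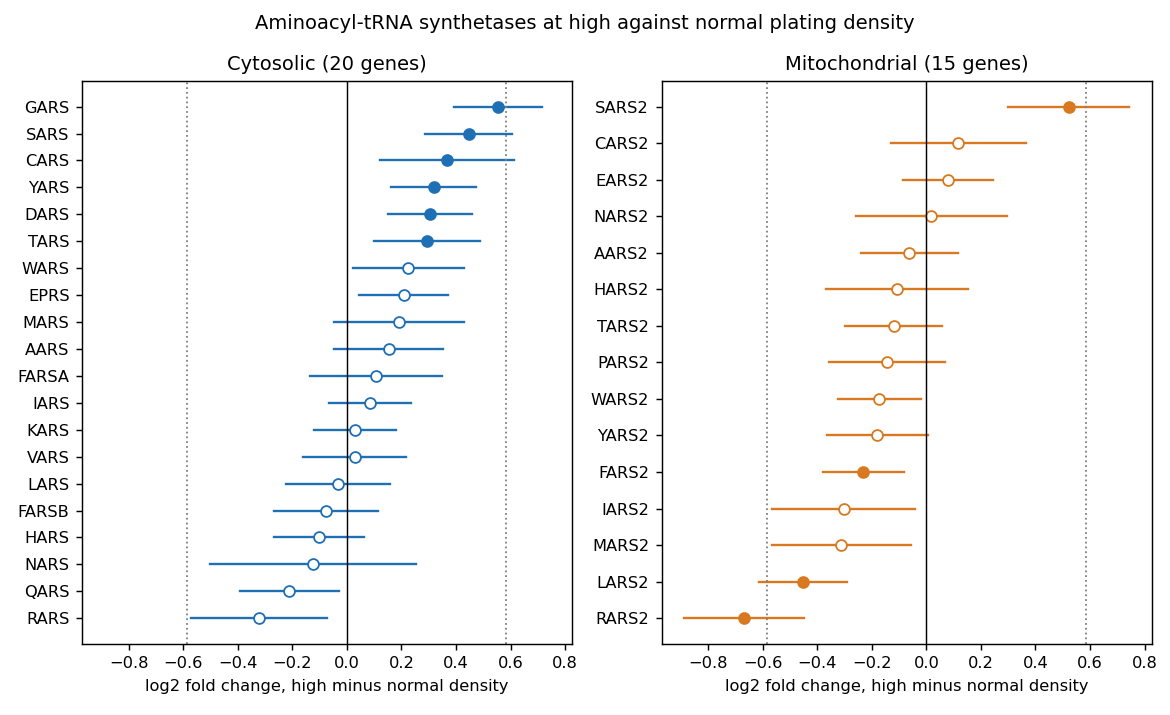
Log2 fold change (high minus normal density) of each cytosolic (left) and mitochondrial (right) synthetase gene on the horizontal axis, with lines for the 95% confidence interval of the limma fit, filled points for genes that passed the FDR and dotted lines at the FC threshold of 1.5. Cytosolic genes run from −0.32 (RARS) to 0.55 (GARS), and mitochondrial genes from −0.67 (RARS2) to 0.52 (SARS2).

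GARS, which charges glycine in both compartments, had the largest difference of the cytosolic genes. Its log2 signals were 8.83, 8.75 and 8.85 at normal density and 9.30, 9.38 and 9.40 at high density. The means were 8.81 ± 0.05 and 9.36 ± 0.05 (SD, n = 3 each), the log2 fold change was 0.55 (SE 0.07), and the limma adjusted p was 0.00166. All high density cultures were above all normal ones, and the 1.47-fold rise was just under the FC threshold. SARS, the seryl enzyme, showed the same separation. Its signals were 8.63, 8.67 and 8.65 at normal density against 9.08, 9.04 and 9.17 at high density (log2 fold change 0.45, SE 0.07, limma adjusted p = 0.00413). GARS and SARS passed when any 1 of the 6 cultures was left out.

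The other 4 cytosolic genes that rose did so by a log2 fold change of 0.29 to 0.37, and none of them overlapped between the groups. CARS charges cysteine. Its signals of 6.48, 6.49 and 6.39 at normal density compare with 6.78, 6.65 and 7.03 at high density (log2 fold change 0.37, SE 0.10, limma adjusted p = 0.0484). High replicate 2 was the nearest of the high cultures to the normal ones. YARS, the tyrosyl enzyme, measured 6.58, 6.58 and 6.52 at normal density and 6.84, 6.87 and 6.92 at high density (log2 fold change 0.32, SE 0.07, limma adjusted p = 0.0150). The 3 high cultures lay close together. DARS, the aspartyl enzyme and a member of the complex, measured 8.93, 8.94 and 8.92 at normal density and 9.19, 9.29 and 9.23 at high density (log2 fold change 0.30, SE 0.07, limma adjusted p = 0.0177). TARS charges threonine, and its signals were 7.81, 7.82 and 7.74 at normal density and 7.96, 8.21 and 8.08 at high density (log2 fold change 0.29, SE 0.08, limma adjusted p = 0.0483). The 4 calls depended on single cultures. DARS and YARS passed in 2 of the 6 fits that leave out 1 culture, those without high replicate 1 or 2. CARS passed only without high replicate 2 and TARS only without high replicate 1, and neither passed once all arrays were set to 1 median. The cytosolic count of genes that rose was thus 2 without any of the normal replicates or without high replicate 3.

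The 14 cytosolic genes that did not pass had log2 fold changes on both sides of 0. Above 0 lay WARS (tryptophan) with 0.23, EPRS (glutamate and proline) with 0.21, MARS (methionine) with 0.19, AARS (alanine) with 0.15, FARSA (the alpha subunit of the phenylalanyl enzyme) with 0.11, IARS (isoleucine) with 0.08, VARS (valine) with 0.03 and KARS with 0.03. Below 0 lay LARS (leucine) with −0.03, FARSB (the beta subunit) with −0.08, HARS (histidine) with −0.10, NARS (asparagine) with −0.13, QARS with −0.21 and RARS (arginine) with −0.32. The second FARSB transcript cluster had −0.09. NARS had the widest spread of the cytosolic genes, with 5.93, 6.58 and 6.45 at high density. RARS measured 7.04, 7.09 and 7.06 at normal density and 6.58, 6.97 and 6.67 at high density, without overlap, with a limma adjusted p of 0.0788. It passed without high replicate 2.

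KARS and QARS differ from GARS in their values although all 3 have special ties to the mitochondrial set. KARS, the lysyl enzyme of both compartments, measured 9.32, 9.30 and 9.35 at normal density and 9.38, 9.36 and 9.32 at high density. The groups overlapped, and the log2 fold change of 0.03 had a 95% interval from −0.12 to 0.18 (limma adjusted p = 0.791). QARS, the glutaminyl enzyme of the cytosol, measured 8.82, 8.95 and 8.85 at normal density and 8.70, 8.57 and 8.72 at high density. This difference of −0.21 (SE 0.08) did not pass (limma adjusted p = 0.104). All its high cultures were below all its normal ones.

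RARS2, the mitochondrial arginyl enzyme, was the only one of the listed synthetases called at both thresholds. Its log2 signals were 6.83, 6.93 and 6.88 at normal density and 6.04, 6.35 and 6.24 at high density. The means were 6.88 ± 0.05 and 6.21 ± 0.16 (SD, n = 3 each), and it fell by 1.59-fold (log2 fold change −0.67, SE 0.09, limma adjusted p = 0.00275). Every high culture was below every normal one, with high replicate 2 the nearest. Without high replicate 1 the log2 fold change was −0.58, just inside the FC threshold of 0.585 on the log2 scale, so that RARS2 passed the FDR but was not called.

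LARS2 and FARS2 fell by less. LARS2, the leucyl enzyme of mitochondria, measured 6.07, 6.13 and 6.11 at normal density and 5.72, 5.63 and 5.60 at high density (log2 fold change −0.45, SE 0.07, limma adjusted p = 0.00380). FARS2, the phenylalanyl enzyme of mitochondria, which is a single chain and not the alpha and beta pair of the cytosol, measured 6.85, 6.83 and 6.79 at normal density and 6.59, 6.60 and 6.58 at high density (log2 fold change −0.23, SE 0.06, limma adjusted p = 0.0419). The groups did not overlap for either gene, and the FARS2 cultures at high density had the smallest SD of the 15 mitochondrial genes, 0.0075. LARS2 passed in all 6 of the fits that leave out 1 culture, and FARS2 only in the one without high replicate 2. FARS2 also did not pass after a second quantile normalization.

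SARS2 went the other way. The mitochondrial seryl enzyme measured 5.70, 5.74 and 5.66 at normal density and 6.39, 6.06 and 6.21 at high density, and it rose by a log2 fold change of 0.52 (SE 0.09, limma adjusted p = 0.00851), or 1.44-fold. All high cultures were above all normal ones, and SARS2 passed in each of the 6 fits with a culture left out. Without high replicate 2 its log2 fold change was 0.60 and it was called. Serine was thus the only amino acid for which the cytosolic and the mitochondrial gene both rose, and the only one with both genes past the FDR.

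The other 11 mitochondrial genes did not pass, and 8 of them had a log2 fold change below 0. MARS2 (methionine) had −0.31, IARS2 (isoleucine) −0.30, YARS2 (tyrosine) −0.18, WARS2 (tryptophan) −0.17, PARS2 (proline) −0.14, TARS2 (threonine) −0.12, HARS2 (histidine) −0.11 and AARS2 (alanine) −0.06. The values above 0 were those of NARS2 (asparagine) with 0.02, EARS2 (glutamate) with 0.08 and CARS2 (cysteine) with 0.12. The signals of IARS2 were 8.90, 8.81 and 9.01 at normal density and 8.51, 8.83 and 8.48 at high density. Here high replicate 2 lay within the range of the normal cultures.

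**Figure D2:**
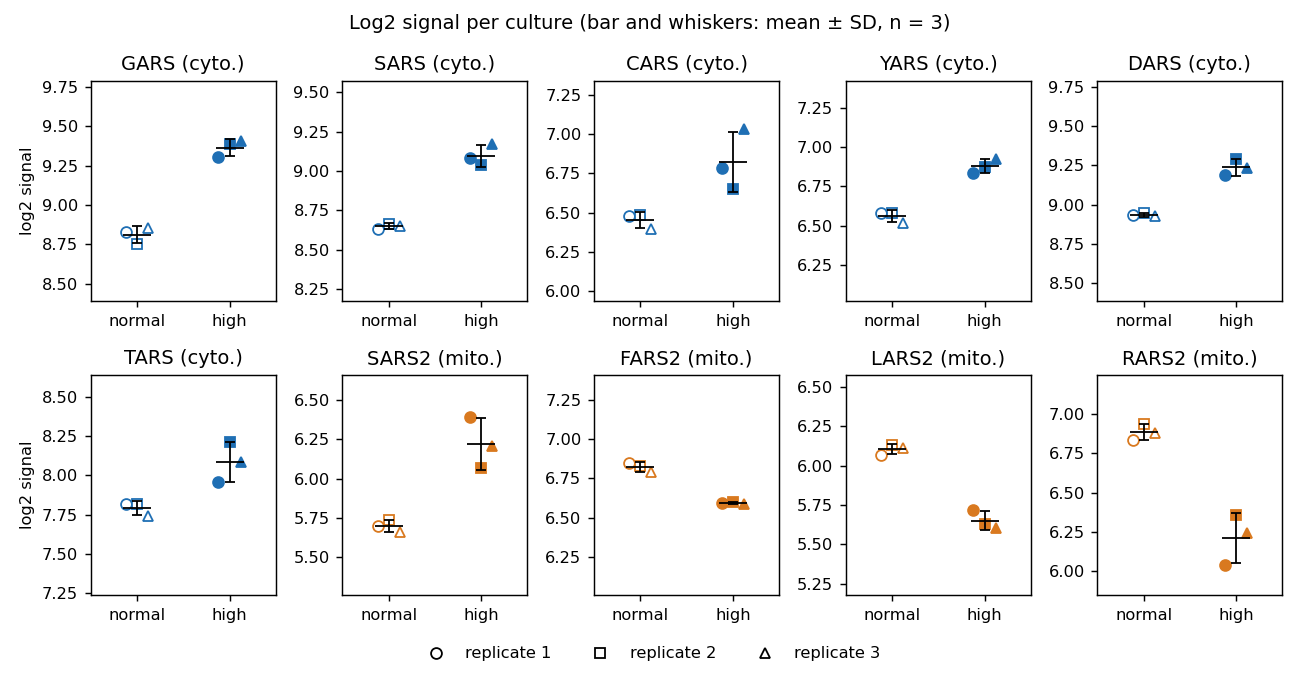
Log2 signal of each of the 10 synthetase genes that passed the FDR, in the normal (open) and high density (filled) cultures, each point a culture with the replicate number as its shape, bars for the mean and whiskers for the SD (n = 3), on axes of equal span. The groups do not overlap for any of them, as for GARS (8.75 to 8.85 against 9.30 to 9.40) and RARS2 (6.83 to 6.93 against 6.04 to 6.35).

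High replicate 2 was the nearest of the high cultures to the normal mean in 9 of the 15 mitochondrial genes (60%). The same count was 7 of the 20 cytosolic genes (35.0%), as many as for high replicate 3. It was 45.4% of all transcript clusters and 48.8% of those above background. Without high replicate 2, 5 mitochondrial genes passed as lower in place of 3. The lower calls at both thresholds over the whole table also went up in that fit, from 941 to 1274. The spread between cultures was larger at high density in 19 of 20 cytosolic and 12 of 15 mitochondrial genes. This compares with 68.4% of all transcript clusters and 74.9% of those above background, and the mitochondrial share was near the latter. The median deviation of the cytosolic genes from their normal means was 0.16, 0.09 and 0.19 in the high cultures, and that of the mitochondrial genes was −0.16, −0.11 and −0.15. The difference of these medians was therefore 0.32, 0.20 and 0.33 in the high cultures, and it lay between −0.0084 and 0.025 in the normal ones. The normal values lie near 0 by construction, because the normal cultures themselves form the means. Each high culture had the same order of the compartments, which restates the fold changes above culture by culture.

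Within single amino acids the difference between the compartments was tested directly. For each culture the log2 signal of the mitochondrial gene was subtracted from that of its cytosolic partner, and the change of this difference between densities was read. The 16 comparisons are not independent, since FARS2 was set against FARSA and FARSB and EPRS against EARS2 and PARS2. In 14 of 16 the change was above 0, with a median of 0.34, which means a change in favour of the cytosolic gene. In 10 comparisons the high cultures lay above all normal ones, in 0 below, and 6 overlapped. No share for differences between other genes is given here, so the counts of 14 and 10 have no background beside them. Of single clusters above background, 2885 of 13077 were without overlap and higher and 4283 without overlap and lower. A two-sided exact permutation test of 3 against 3 cultures cannot go below p = 0.1, which these 10 reached, and after Benjamini-Hochberg adjustment over the 16 comparisons the smallest value was 0.16, so that no single change passed.

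Tyrosine, threonine and leucine show what moved. YARS minus YARS2 was −0.09, −0.20 and −0.29 at normal density and 0.37, 0.23 and 0.31 at high density, a change of 0.50 (SE 0.07). Here YARS rose while YARS2 had a log2 fold change of −0.18. For TARS minus TARS2 the values were 1.61, 1.53 and 1.63 at normal density and 1.92, 2.07 and 2.03 at high density, a change of 0.41 (SE 0.05). LARS minus LARS2 went from 1.60, 1.64 and 1.62 to 1.88, 2.19 and 2.05, a change of 0.42 (SE 0.09) that came with a fall of LARS2 and a LARS value near 0. For RARS minus RARS2 the change was 0.35 (SE 0.06) although both log2 fold changes were below 0. None of these 4 overlapped between densities.

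The remaining comparisons without overlap were WARS with a change of 0.40, IARS with 0.39, EPRS against PARS2 with 0.35, FARSA against FARS2 with 0.34, AARS with 0.22 and EPRS against EARS2 with 0.13. MARS minus MARS2 changed by 0.50 (SE 0.22) with overlap, since high replicate 2 at 1.95 lay within the normal range of 1.74 to 1.99. Without this culture the change was 0.70. CARS with 0.25 and FARSB against FARS2 with 0.15 overlapped as well. HARS and HARS2, which are neighbours in the bovine RefSeq annotation, had similar values of −0.10 and −0.11 and a change of the difference of 0.01 (SE 0.14, exact permutation p = 1.0). For serine the change was −0.08 (SE 0.10) and for asparagine −0.14 (SE 0.13), the 2 values below 0.

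**Figure D3:**
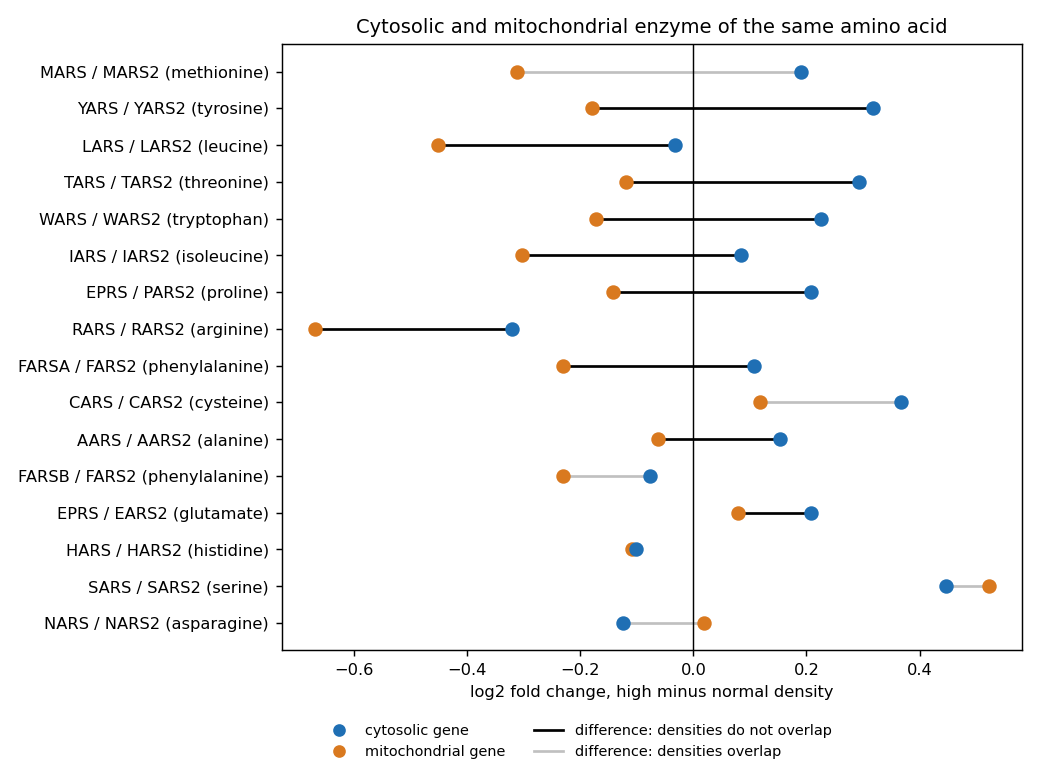
Log2 fold change of the cytosolic (blue) and mitochondrial (orange) gene for each amino acid, joined by a line that is black where the difference between them did not overlap between densities and grey where it did. The blue point lies to the right in 14 of 16 comparisons, and serine and asparagine are the exceptions.

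The complex and the enzyme classes divide the cytosolic genes further. Of the 8 synthetases of the multisynthetase complex (EPRS, MARS, QARS, RARS, KARS, IARS, LARS and DARS) 1 rose, which was DARS, with a median log2 fold change of 0.06. Of the 12 cytosolic genes outside it 5 rose, with a median of 0.19. As shares these were 12.5% and 41.7%, against 13.4% of all clusters above background that passed as higher. Without any 1 of the normal replicates or without high replicate 3 the counts were 0 and 2. In those fits 9.26 to 10.2% of clusters above background passed as higher. The difference between these groups was not tested. The scaffold genes did not pass: AIMP1 had −0.34 (limma adjusted p = 0.131), AIMP2 had 0.10 and EEF1E1 had 0.0028. By catalytic fold, the 2 classes into which synthetases are sorted, 2 of 9 cytosolic class I and 4 of 10 class II genes rose (medians 0.08 and 0.13, EPRS with both folds left out). As shares these were 22.2% and 40%. Without any 1 of the normal replicates or without high replicate 3 the counts were 0 and 2. In mitochondria 2 of 8 class I genes fell (median −0.24), and of 7 class II genes 1 rose and 1 fell (median −0.11). The shares that fell were thus 25% and 14.3%, against 18.5% of clusters above background. The difference between the classes was not tested.

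Partners of the cytosolic synthetases moved in no common direction. Of 9 measured charging and proofreading factors 1 rose and 2 fell, with a median of −0.0022. These shares, 11.1% and 22.2%, were near the 13.4% higher and 18.5% lower of all clusters above background. TARSL2, a threonyl synthetase close in sequence to TARS, measured 4.37, 4.74 and 4.56 at normal density and 5.21, 5.75 and 5.04 at high density (log2 fold change 0.78, SE 0.19, limma adjusted p = 0.0267). It was called, and its normal mean was below background, so that the size of the change is uncertain. PTRHD1, which resembles the peptidyl-tRNA hydrolases, was called lower with a log2 fold change of −0.68 (limma adjusted p = 0.0222). With 1 culture left out, PTRHD1 was called only without high replicate 2, and TARSL2 only without normal replicate 2 or high replicate 3. The elongation factors bring charged tRNAs to the ribosome and move it on. Of the 8 listed genes 1 rose (12.5%, also near the 13.4% above), with a median of −0.02. This gene, EEF1A2, passed in 2 of the 6 fits with a culture left out, those without normal replicate 1 or high replicate 2.

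The mitochondrial partners that passed were few, and their shares did not stand apart from the 18.5% of clusters above background that passed as lower. Of 5 measured charging partners 1 fell, with a median of −0.02. QRSL1, a subunit of the enzyme that converts glutamate to glutamine on the mitochondrial tRNA, measured 6.76, 6.76 and 6.88 at normal density and 6.31, 6.61 and 6.35 at high density (log2 fold change −0.38, SE 0.10, limma adjusted p = 0.0358), and it was named after its values were seen. None of the 5 passed without any of the normal replicates or without high replicate 1 or 3, and the median turned above 0 without normal replicate 1 or 3 or high replicate 3. Of 10 mitochondrial translation factors 9 lay below 0, as did 7513 of the 13077 clusters above background. The median of the factors was −0.22, and 1 of them fell. This was MTIF2, the initiation factor that brings the first tRNA to the mitochondrial ribosome. Its signals of 4.78, 4.60 and 4.71 at normal density and 3.96, 3.93 and 3.75 at high density lay near or below background (log2 fold change −0.82, limma adjusted p = 8.51e-04), which limits the size of the change. Without high replicate 2, 6 of the 10 factors fell. Leaving out this culture also raised the calls at both thresholds over the whole table, from 941 to 1274 lower and from 1064 to 1160 higher. The share of all clusters that passed as lower in that fit is not given here.

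Genes of tRNA maturation, which cut, export and modify tRNAs, were mostly lower. Of 34 measured, 29 had a log2 fold change below 0, 9 fell and 1 rose, and the median was −0.23. This 26.5% that fell compares with 18.5% of the clusters above background. Among all 13077 such clusters 7513 had a log2 fold change below 0, with a median of −0.05. Called at both thresholds were KIAA0391, the nuclease subunit of mitochondrial RNase P, with −0.73 (limma adjusted p = 0.00437), and OSGEP, which takes part in a modification beside the anticodon, with −0.61 (limma adjusted p = 0.00830). OSGEP was below background at high density and was not called without high replicate 1 (−0.50). The count that fell ranged from 4 to 14 when 1 culture was left out, with 14 without high replicate 2. In that fit the lower calls at both thresholds over the whole table also went up, from 941 to 1274.

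Genes of the integrated stress response, the pathway through which ATF4 is made, mostly rose. Of 17 measured genes 15 rose and 10 were called higher, and the median log2 fold change was 0.80. ATF4 itself measured 8.62, 8.85 and 8.73 at normal density and 9.53, 9.54 and 9.54 at high density (log2 fold change 0.80, SE 0.08, limma adjusted p = 5.51e-04). The others called were CHAC1, which breaks down glutathione, with 3.10, TRIB3 (a pseudokinase that binds ATF4) with 1.83, VLDLR (a lipoprotein receptor) with 1.63, SLC7A11 (the cystine transporter) with 1.61, SLC7A5 (a transporter of large neutral amino acids) with 1.31, PSAT1 (an enzyme of serine synthesis) with 1.14, DDIT3 (the transcription factor CHOP) with 1.13, SESN2 (a leucine-binding regulator) with 0.91 and ATF3 with 0.72. Among the listed cytosolic synthetases the highest value was the 0.55 of GARS. EIF2AK4, the kinase that senses uncharged tRNA, measured 7.09, 7.08 and 7.07 at normal density and 7.35, 7.39 and 7.38 at high density and rose by 0.29 on the log2 scale (limma adjusted p = 0.0169), named after its value was seen. It passed in 2 of the 6 fits with a culture left out, those without high replicate 1 or 2. EIF2AK3, the other kinase of the list, had a log2 fold change of 0.14 that did not pass (limma adjusted p = 0.213).

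**Figure D4:**
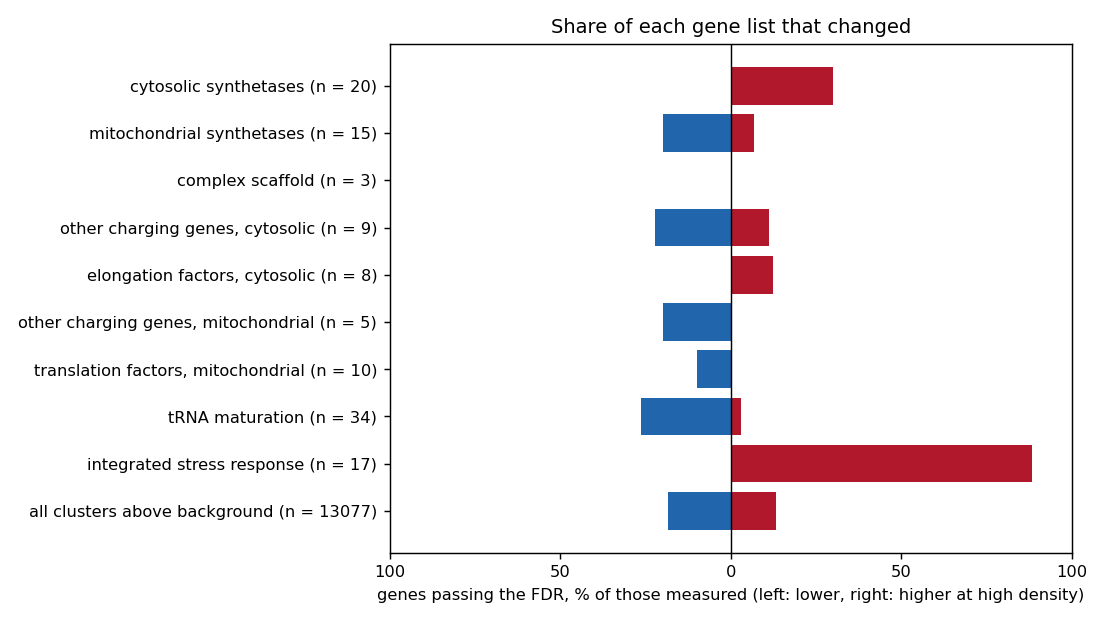
Share of the measured genes of each list that passed the FDR, in percent, as bars to the right for genes higher at high density (red) and to the left for genes lower (blue), with the number measured in brackets. The bars reach 30.0% higher for cytosolic synthetases, 20% lower for mitochondrial synthetases, 26.5% lower for tRNA maturation and 88.2% higher for the integrated stress response, and those of all clusters above background reach 13.4% higher and 18.5% lower.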

How the data were processed

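RNA of 6 GC cultures, 3 per density, was hybridized to 1 array each. The authors processed the scans in Affymetrix Expression Console with RMA, which corrects the background, normalizes and summarizes, and the deposited table holds log2 signals per transcript cluster. The array's genome build is not given in the sources used here. No further normalization was applied, and 0 columns belonged to other samples. Gene symbols are those of the table. By accession, 23 of the 36 member clusters matched the RefSeq gene table of assembly ARS-UCD2.0, all 23 to the same gene, some under a newer name (AARS1 for AARS).

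Densities were compared in R 4.3.3 by the functions lmFit and eBayes of limma 3.58.1 (single prior variance, no covariate) over all 26773 transcript clusters with Benjamini-Hochberg adjustment. The script was tested on simulated data. The thresholds followed the methods (FC above 1.5, p and FDR below 0.05). A symbol with several clusters was read by the one with the highest mean signal. RMA signals of different probes were not compared as levels, and RMA compresses low signals, so that fold changes near background are understated. Plots were made with matplotlib 3.10.9.

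The members, gene lists and tests were chosen with earlier results of these data known, and the groups by complex and enzyme class were set from general knowledge after values were seen. Values per culture are given for members that were called, for up to 8 per compartment with the smallest adjusted p among those that passed, and for KARS, GARS and QARS. Of the other lists, the scaffold genes and called genes are named. RARS, NARS and IARS2, whose values per culture are given, and QRSL1, EEF1A1, EEF1A2, EIF2AK3, EIF2AK4, SEPSECS and the genes of RNase P and beside synthetases are not covered by it and were picked once their values had been seen. VARS2, DTD2, GATB, C12orf65, RTCB and CEBPB were not analysed here under these symbols. PET112, an older name of GATB, was measured. The methods describe 6 cell preparations, but do not say whether same-numbered cultures share a pool, so that p-values measure the spread between these cultures. Alternatives were the t-test with equal variances, which for 2 groups equals the analysis of variance that the methods name, trend and robust variances, array weights, a replicate block, treat, 2 rescalings, a filter at background, the mean of a symbol's clusters, and leaving out each culture. Dropping KARS and GARS was chosen after seeing the data. A result on 1 other gene is not reported here. The number of arrays limits the precision.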

Additional observations from a re-analysis of the deposited data

How the results depend on the processing

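The medians of both compartments, and every gene that passed, kept their direction under the alternatives run. The sign changed in 5 genes near 0 that did not pass (KARS, LARS, NARS, VARS and NARS2) and in 2 of the 16 amino acid comparisons, histidine and serine, which overlapped. With trend and robust variances 1 cytosolic gene, QARS, passed as lower, and EPRS was added to those that passed as higher. With array weights 1 cytosolic and 5 mitochondrial genes passed as lower. With the filter at background, which tests fewer clusters, these counts were 2 and 5. Array weights also added EPRS, MARS and WARS to the genes that passed as higher. Under treat at the FC threshold 0 synthetases were called lower, with RARS2 past the plain FC threshold only. The median of the mitochondrial genes was −0.19 with each array shifted to 1 median, which moved the median of all clusters from 0.02 to −0.03 and the split of calls from 53.1% higher to 46.0%. Under treat that split was 69.8%. Same-numbered cultures did not deviate together (r = 0.0459, −0.0457 and −0.0406). With the replicate block 2 cytosolic genes passed as higher, as CARS, DARS, TARS and YARS were lost. These were 10% of the cytosolic genes that passed as higher, against 7.04% of all clusters and 11% of those above background. The share was thus not above that of clusters above background. FARS2 was lost with the replicate block as well. With the t-test that equals the methods' analysis of variance and Benjamini-Hochberg adjustment 4 cytosolic genes passed as higher and 4 mitochondrial genes as lower.

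With 1 culture left out, 2 to 7 cytosolic genes passed as higher and 0 to 1 as lower, and 2 to 5 mitochondrial genes passed as lower and 1 as higher. Called higher were 0 to 1 and called lower 0 to 1, with 0 lower without high replicate 1 and 1 higher (SARS2) without high replicate 2. The cytosolic median ranged from 0.085 to 0.19 and the mitochondrial median from −0.18 to −0.13. The number of amino acid comparisons without overlap ranged from 10 to 12. It could not go below the 10 of the full set, because leaving out a culture cannot create overlap. The median change of the comparisons ranged from 0.27 to 0.34. Of 420 recomputed values of the 35 genes, 373 kept their side of the threshold, 33 lost it and 14 gained it. Without KARS and GARS 5 cytosolic genes rose. The causes of these differences were not tested.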

Other observations

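Genes that lie beside a synthetase in the RefSeq annotation were read after the values were seen. ORC3, a subunit of the origin recognition complex next to RARS2, had means of 6.90 ± 0.12 in normal and 6.18 ± 0.14 in high density cultures (log2 signal, SD, n = 3 each), a log2 fold change of −0.72 (limma adjusted p = 0.00258) beside the −0.67 of RARS2. MRPS12, a mitochondrial ribosomal protein next to SARS2, had 7.41 ± 0.13 and 7.50 ± 0.18 (SD, n = 3 each), a log2 fold change of 0.09 (limma adjusted p = 0.656) beside the 0.52 of SARS2. Whether transcription in these gene pairs is linked was not tested.

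The subunits of RNase P, which trims the leading end of tRNAs, were also read after their values were seen. In the nuclear enzyme POP1 fell by 0.56 and RPP38 by 0.38 on the log2 scale (limma adjusted p = 0.0129 and 0.0495), while POP7 rose by 0.47 (limma adjusted p = 0.00401). Its other listed subunits did not pass. Their log2 fold changes were −0.38 (POP4), −0.28 (POP5), −0.24 (RPP14), −0.02 (RPP30), 0.05 (RPP25) and 0.15 (RPP40). In the mitochondrial enzyme TRMT10C fell by 0.38 (limma adjusted p = 0.0297) together with KIAA0391, and HSD17B10, a dehydrogenase that is another subunit, had a log2 fold change of 0.16 that did not pass (limma adjusted p = 0.211). With 1 culture left out, POP7 passed in all 6 fits, POP1 in 4, and RPP38 and TRMT10C only without high replicate 2. Chosen in the same way, SEPSECS, which completes the charging of selenocysteine tRNA, fell by 0.34 (limma adjusted p = 0.0103), with 4.97, 5.02 and 5.04 at normal density and 4.67, 4.71 and 4.63 at high density, near background. EEF1A1, the factor that delivers charged tRNAs, differed widely among the high cultures, with 8.04, 9.20 and 8.24 against 8.80, 8.69 and 9.09 at normal density, and EEF1A2 rose by 0.55 (limma adjusted p = 0.0230) but passed in only 2 of the 6 fits with a culture left out.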
